A study of Mus musculus with 3 samples.

Results

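A set of 10 genes of the bone morphogenetic protein (BMP) pathway were followed in nephron progenitor cells of the fetal mouse kidney. They were the ligands Bmp7, Bmp4 and Bmp2, the type I receptor Bmpr1a, the pseudoreceptor Bambi, the secreted modulator Bmper, the secreted inhibitor Grem1, the inhibitory Smads Smad6 and Smad7, and the membrane protein Tmem100. They are 10 of the 27998 genes in the count matrix, taken by symbol, and all 10 symbols were found. They were described in 3 groups of cells set by raw unique molecular identifiers (UMIs, the molecules counted per gene and cell). Six2-only cells held at least 1 UMI of Six2, the transcription factor that maintains progenitors, and none of Wnt4 or Lhx1. Wnt4-positive cells held at least 1 UMI of Wnt4, a signal needed for the change from mesenchyme to epithelium, and none of Lhx1. Lhx1-positive cells held at least 1 UMI of Lhx1, a transcription factor of the early nephron.

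BMP ligands are secreted dimers that bind type I and type II receptors, which phosphorylate Smad1, Smad5 and Smad9. These join Smad4 in the nucleus and raise targets such as the Id genes. Gremlin and Noggin bind the ligands outside the cell, BAMBI resembles a type I receptor without a kinase domain, and Smad6 and Smad7 inhibit the pathway inside the cell. In the developing kidney, Bmp7 is made by nephron progenitors and ureteric epithelium and is needed to keep the progenitors.

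All cells carried the Six2GFP reporter and came from kidneys at E14.5 (embryonic day). Kidneys from more than one litter were pooled into 3 tubes, living GFP-positive cells were sorted, and each tube became a 10x Chromium library, so single animals cannot be told apart. The labels name no treatment and no other genotype. The libraries are called 1, 2 and 3 by the suffix of their cell barcodes, and how suffixes match the sample labels is not stated in the sources used here.

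The libraries held 3023, 2759 and 2114 kept cells with 50882927, 35264096 and 35816105 UMIs. Six2 was found in 77.6% to 84.2% of the cells of a library, and the progenitor genes Cited1 and Eya1 in 61.0% to 64.6% and 89.6% to 93.1%. There were 6011 Six2-only cells (2173, 2157 and 1681 in libraries 1, 2 and 3), 413 Wnt4-positive cells (200, 103 and 110) and 79 Lhx1-positive cells (31, 29 and 19). Another 1393 cells were in no group. The median UMIs per cell were 14742 in Six2-only, 18385 in Wnt4-positive and 16238 in Lhx1-positive cells, so the groups differed in depth. Libraries 1 and 2 shared 10 cell barcodes, 1 and 3 shared 7, and 2 and 3 shared 5. Of the 79 Lhx1-positive cells, 48 held a Six2 UMI, 38 held at least 1 and 20 at least 2 of 7 other early nephron markers, and 6 held at least 2 of 8 markers of ureteric epithelium, a tissue that also makes Lhx1. Levels are given in CPM, the UMIs of a gene in every 1000000 UMIs of its cell group in 1 library. Summed ureteric markers stood at 1.18 to 2.08 CPM in Six2-only, 1.98 to 3.04 in Wnt4-positive and 48.8 to 270.1 in Lhx1-positive cells. The Lhx1-positive group was therefore mixed, and fits with the 6 cells left out are given below. Cells of a tube are not replicates, so n is the 3 tubes. The p-values reflect the spread of within-tube differences across these 3 tubes, and that spread may be technical.

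The promoters of 3 members are shown because they belong to genes with unlike levels: Bmper, which peaked in Wnt4-positive cells, Bmp4, which peaked in Lhx1-positive cells, and Grem1, which was nearly undetected. Each is the 250 bases before the RefSeq start (GRCm38.p6), read 5′ to 3′. Bmper lies at chr9:23222826-23223075 on the plus strand, Bmp4 at chr14:46390670-46390919 on the minus strand and Grem1 at chr2:113758649-113758898 on the minus strand.
Bmper: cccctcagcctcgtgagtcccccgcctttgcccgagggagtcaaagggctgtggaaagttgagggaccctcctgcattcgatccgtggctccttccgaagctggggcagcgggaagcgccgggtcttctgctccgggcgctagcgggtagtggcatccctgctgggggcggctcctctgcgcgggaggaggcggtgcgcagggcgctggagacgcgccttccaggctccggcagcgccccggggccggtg
Bmp4: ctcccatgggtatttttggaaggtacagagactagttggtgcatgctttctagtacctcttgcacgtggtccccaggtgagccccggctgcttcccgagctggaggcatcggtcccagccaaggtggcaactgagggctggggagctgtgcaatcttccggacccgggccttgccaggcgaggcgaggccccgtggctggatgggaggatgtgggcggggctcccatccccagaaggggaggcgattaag
Grem1: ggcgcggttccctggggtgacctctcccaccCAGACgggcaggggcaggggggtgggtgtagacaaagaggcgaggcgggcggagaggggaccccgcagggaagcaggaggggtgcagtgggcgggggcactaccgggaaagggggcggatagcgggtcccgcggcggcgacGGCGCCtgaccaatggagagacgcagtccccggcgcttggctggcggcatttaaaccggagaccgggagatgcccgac
Capitals mark GGCGCC, a motif that BMP Smads can bind and that is its own reverse complement, and CAGAC, a Smad binding element that was searched on both strands. Of all 32851 promoter windows of this length, 9.59% held GGCGCC and 42.2% held CAGAC. The Grem1 window held 1 of each, and the Bmper and Bmp4 windows held neither. Among matched members not shown, the Bmpr1a window held 1 GGCGCC and no CAGAC, and the Smad6 window held neither. The promoter table matched 5 of the 10 members. These matches describe letters and are not binding sites.

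Between Six2-only and Wnt4-positive cells, 5 members rose (Bmp2, Bmper, Bambi, Smad7 and Tmem100) and Bmp7 fell. Bmp4, Smad6 and Bmpr1a did not pass the test, and Grem1 was too rare to be tested. These 6 of 9 members stood against 10.2% of all 10237 genes tested that were called in this comparison (4.85% higher and 5.33% lower). The members were chosen with earlier results of these data known. A high share of called members, here and in the comparisons below, can thus come from that choice and is a description. Of the 9, Bmp2 passed the filter only through the groups where it was higher. The median log2 change was 0.52 over the 9 members and -0.01 over all genes. Between Wnt4-positive and Lhx1-positive cells, Bmp2 and Bmp4 rose and Bmper fell, 3 of 9 members against 1.13% of all genes (0.977% higher and 0.156% lower). Between Six2-only and Lhx1-positive cells, Bmp2, Bmp4, Bambi and Tmem100 rose and none fell, 4 of 9 members against 5.12% of all genes (3.27% higher and 1.85% lower). These comparisons share groups and are not independent of one another. Without library 1 the called members were 4, 2 and 3 in the order of these comparisons, without library 2 they were 7, 2 and 4, and without library 3 they were 6, 4 and 4. With no library block in the first comparison, 2 members (Bmper and Tmem100) were called and 85 of all genes. With the sums of each library thinned to the smallest of its 3, which cuts every group to the Lhx1-positive total, Tmem100 alone of 8 tested members was called in the first comparison (Smad6 was not tested). There the log2 change was -0.29 for Bmp7, 0.36 for Bambi and 0.25 for Smad7. With each cell thinned to 6000 UMIs and grouped anew by its thinned UMIs, 6 members were tested, since Bmp2, Bambi and Smad6 fell under the filter. Of these 6, Bmp7, Bmper and Tmem100 were called in the first comparison and none in the others. The groups then held 3990 Six2-only, 179 Wnt4-positive and 39 Lhx1-positive cells, although only 1 Lhx1-positive cell was too shallow, so depth and membership changed together. With the 6 Lhx1-positive cells with ureteric markers left out, together with 1 such Wnt4-positive cell, the called members were the same in each comparison. The log2 changes into Lhx1-positive cells from Wnt4-positive cells were then 1.72 for Bmp4, 2.66 for Bmp2 and -0.94 for Bmper. Those from Six2-only cells were 1.31 for Bmp4, 4.51 for Bmp2 and 3.04 for Tmem100.

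**Figure D1:**
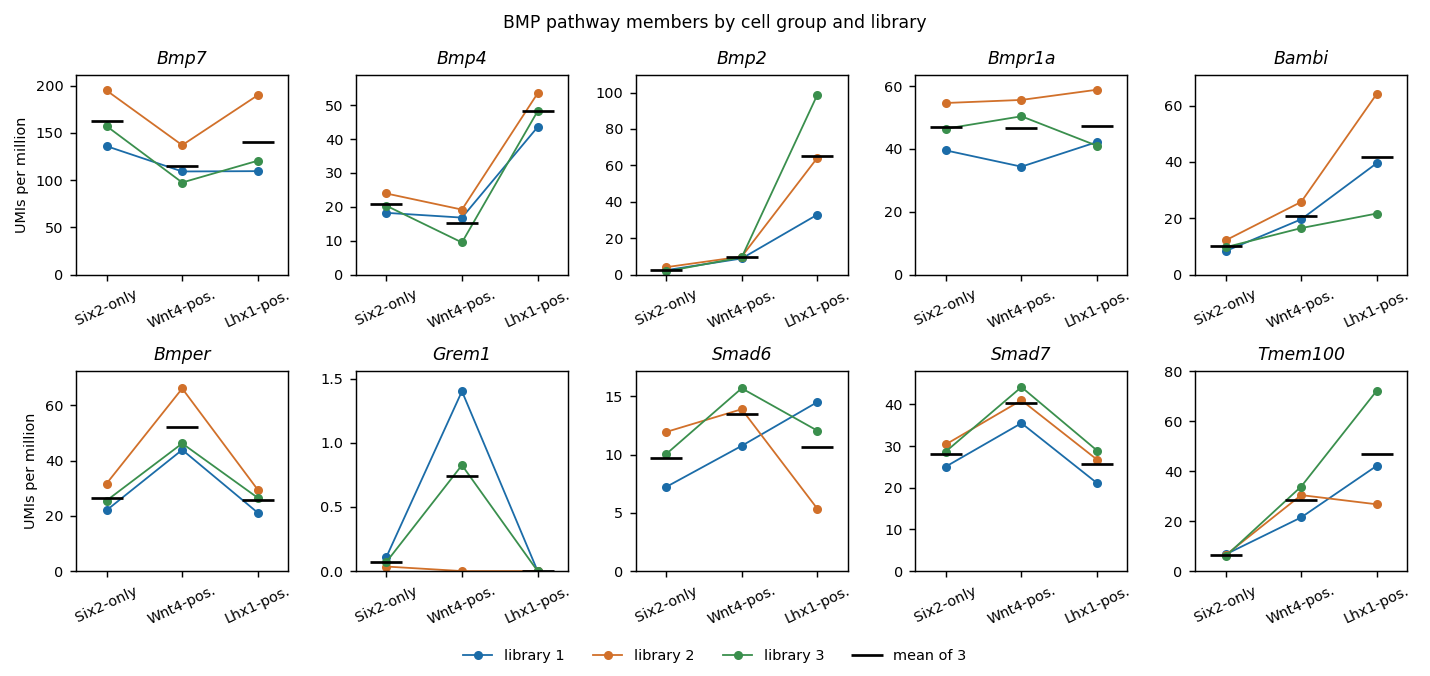
Level of each member in CPM (y axis, from 0) in the 3 cell groups (x axis), with 1 line per library and a black bar at the mean of 3. Bmper has its highest point in Wnt4-positive cells and Bmp2 in Lhx1-positive cells in every library, while Grem1 stays at or below 1.40.

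Bmp7 (chr2:172868012-172940321) encodes the ligand best known in nephron progenitors. In Six2-only cells its level was 135.9, 194.8 and 157.1 CPM in libraries 1, 2 and 3, and a UMI was found in 87.0% ± 1.63 (SD, n = 3) of cells. In Wnt4-positive cells the level was 109.1, 137.0 and 97.4, and in Lhx1-positive cells 109.5, 189.8 and 120.5. Wnt4-positive cells were lower in all 3 libraries, although the ranges of the groups overlapped. The log2 change was -0.49 ± 0.07 (SE; edgeR quasi-likelihood test, adjusted p = 2.78e-05). Without the library block the adjusted p of edgeR was 0.172. Lhx1-positive cells stood between, with log2 differences of 0.24 ± 0.13 from Wnt4-positive (adjusted p = 0.625 by edgeR) and -0.25 ± 0.11 from Six2-only cells (adjusted p = 0.266). That level joined Lhx1-positive cells with and without a Wnt4 UMI, whose Bmp7 levels are given apart below. The 73 cells with at least 3 of 6 immune markers, which should lack the gene, held a UMI in 8.22%, at a median of 9468 UMIs per cell.

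Bmp4 (chr14:46383520-46390669), a ligand also made by renal stroma, showed its change at the Lhx1 step. Its level was 18.2, 23.9 and 20.3 in Six2-only cells, 16.8, 19.2 and 9.50 in Wnt4-positive cells, and 43.5, 53.5 and 48.2 in Lhx1-positive cells. The Lhx1-positive values lay above all others. The log2 change from Wnt4-positive cells was 1.63 ± 0.25 (edgeR adjusted p = 0.000408) and from Six2-only cells 1.21 ± 0.22 (edgeR adjusted p = 0.00084). The second call was lost without library 1 (adjusted p = 0.062 by edgeR) and without the 6% of cells with the most UMIs (log2 difference 0.95, adjusted p = 0.0606). Summed stromal markers ranged from 58.0 to 163.1 in Lhx1-positive, 79.5 to 105.9 in Wnt4-positive and 101.0 to 130.9 in Six2-only cells, with 8 of 9 markers detected in the first and Pdgfrb at 0. With cells bearing immune, endothelial, erythroid or stromal markers left out (4 Lhx1-positive, 20 Wnt4-positive and 317 Six2-only), the log2 changes into Lhx1-positive cells were 1.71 and 1.23 (edgeR adjusted p = 0.000242 and 0.000678). The log2 difference of Bmp4 at the Wnt4 step, -0.42 in the main comparison (edgeR adjusted p = 0.0951), was then -0.48 (0.0445).

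Bmp2 (chr2:133552159-133562885), a close relative of Bmp4, changed most in log2 terms among the 9 tested members in both comparisons with Lhx1-positive cells. Its level was 2.47, 4.10 and 1.78 in Six2-only cells, 8.88, 9.92 and 9.50 in Wnt4-positive cells, and 33.0, 64.2 and 98.8 in Lhx1-positive cells. The ranges of the 3 groups did not overlap. The log2 change was 1.84 ± 0.32 at the Wnt4 step (edgeR adjusted p = 0.000418) and 2.64 ± 0.35 at the Lhx1 step (edgeR adjusted p = 4.79e-05). The first of these calls was lost without the library block (edgeR adjusted p = 0.0791). Bmp2 lay under the filter on low counts in every Six2-only sum. It entered the test only through the groups where it was higher, so its calls are not independent of the filter. With no filter on low counts Bmp2 was still called at the Wnt4 step. Few cells carried the signal: 178 of 6011 Six2-only, 38 of 413 Wnt4-positive and 25 of 79 Lhx1-positive cells held a Bmp2 UMI. A single Lhx1-positive cell held 16.7% of that group's Bmp2 UMIs, and without it the pooled level was 49.2. In library 2, 1 cell held 15 of the 24 Bmp2 UMIs of the Lhx1-positive group. Bmp2 was also found in 38.2% ± 11.9 (SD, n = 3) of the 73 cells with immune markers, at 106.9 ± 84.0 CPM. The summed immune markers in Lhx1-positive cells were 0 to 7.23 with Fcer1g, Lyz2 and Cx3cr1 at 0, and in Wnt4-positive cells 1.24 to 53.6 with Ptprc at 0. Of the 6 immune markers, 3 were detected in Lhx1-positive and 5 in Wnt4-positive cells. With cells bearing immune, endothelial, erythroid or stromal markers left out, the log2 changes were 1.81 and 2.69.

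**Figure D2:**
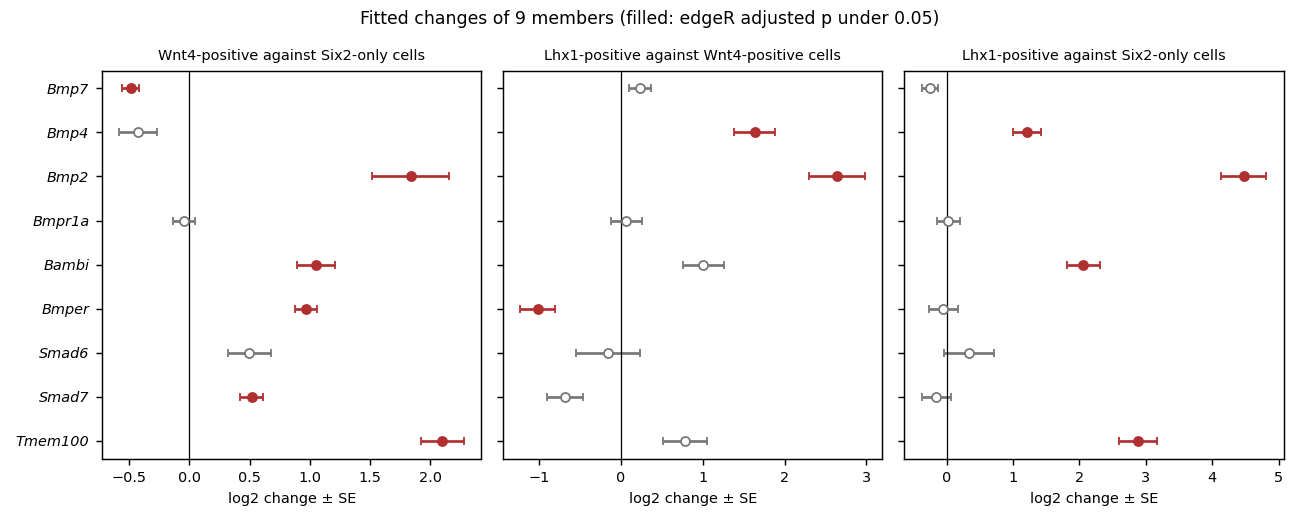
Fitted log2 change ± SE (x axis) of the 9 tested members (y axis) in the 3 comparisons of cell groups. Filled points passed the edgeR threshold: 6 members in the first panel, 3 in the second and 4 in the third.

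Bmpr1a (chr14:34410734-34503341), a type I receptor for Bmp2 and Bmp4, differed between the groups by less than the spread of the libraries. It measured 39.5, 54.6 and 46.4 in Six2-only cells, 34.4, 55.6 and 50.4 in Wnt4-positive cells, and 42.2, 58.8 and 41.0 in Lhx1-positive cells. The log2 difference between Wnt4-positive and Six2-only cells was -0.04 ± 0.09 (edgeR adjusted p = 0.836), and those of Lhx1-positive cells were 0.07 ± 0.19 and 0.03 ± 0.17. All 3 differences changed sign under some alternatives, none of which was called.

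Bambi (ENSMUSG00000024232), the pseudoreceptor, rose at the Wnt4 step. Its level was 8.34, 12.1 and 9.72 in Six2-only cells, 19.6, 25.8 and 16.5 in Wnt4-positive cells, and 39.6, 64.2 and 21.7 in Lhx1-positive cells. The ranges of the first 2 groups did not overlap, while library 3 of the Lhx1-positive cells fell inside the Wnt4-positive range. The log2 change at the Wnt4 step was 1.05 ± 0.16 (edgeR adjusted p = 9.21e-05). It missed the threshold without library 1 (adjusted p = 0.0519 by edgeR) and without the block (0.057). With sums thinned to the smallest of the library it was 0.36 (adjusted p = 0.847 by edgeR). At the Lhx1 step the log2 difference of 1.01 ± 0.25 just missed it (edgeR adjusted p = 0.05), and against Six2-only cells the change was 2.06 ± 0.25 (edgeR adjusted p = 5.78e-06). The 6 Lhx1-positive cells with ureteric markers stood at 92.4 ± 17.5 (SD, n = 3). Without them the Lhx1-positive level was 36.1 ± 25.4, with a log2 difference from Wnt4-positive cells of 0.79 and from Six2-only cells of 1.83 (edgeR adjusted p = 0.409 and 0.000191).

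Bmper (chr9:23223076-23485200) encodes a secreted protein that binds BMPs and can dampen or aid their signal. Its level was 22.0, 31.7 and 25.5 in Six2-only cells, 43.9, 66.2 and 46.2 in Wnt4-positive cells, and 21.1, 29.4 and 26.5 in Lhx1-positive cells. The Wnt4-positive values lay above all others, and the other two groups overlapped almost entirely. A Bmper UMI was found in 28.4% of Six2-only, 51.8% of Wnt4-positive and 28.2% of Lhx1-positive cells, means over libraries. After each cell was thinned to 6000 UMIs these shares were 13.9%, 25.6% and 10.5%. Shallower cells were left out there, 94 Six2-only, 3 Wnt4-positive and 1 Lhx1-positive. In cells with immune markers the unthinned share was 2.78%. The log2 change was 0.97 ± 0.09 at the Wnt4 step (edgeR adjusted p = 1.27e-07) and -1.01 ± 0.21 at the Lhx1 step (edgeR adjusted p = 0.00997). The fall was not called without library 1 (adjusted p = 0.336 by edgeR) or library 2 (0.0623), with a log2 difference between -1.10 and -0.97 in each case of a library left out.

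Grem1 (chr2:113746164-113758646), whose protein binds BMP2, BMP4 and BMP7 outside the cell, was close to undetected. It had 4, 1 and 2 UMIs in Six2-only cells and 6, 0 and 2 in Wnt4-positive cells of libraries 1, 2 and 3. In Lhx1-positive cells it had 0 in each, which allows a pooled level of up to 1.94 CPM. Only 7 of 6011 Six2-only and 6 of 413 Wnt4-positive cells held a UMI, so no difference was tested.

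Among the inhibitory Smads, Smad7 (ENSMUSG00000025880) rose at the Wnt4 step. Its level was 25.1, 30.4 and 28.7 in Six2-only cells, 35.5, 41.0 and 44.2 in Wnt4-positive cells, and 21.1, 26.7 and 28.9 in Lhx1-positive cells. The Wnt4-positive values lay above all others. The log2 change was 0.52 ± 0.09 (edgeR adjusted p = 0.000707), which was not called without library 1 (0.0519) or without the block (0.0661). At the Lhx1 step the log2 difference of -0.68 ± 0.22 did not pass (edgeR adjusted p = 0.203), although the level was lower in all 3 libraries. The mean share of cells with a Smad7 UMI was also lower, at 35.1% against 50.1% in Wnt4-positive cells. With each cell thinned to the same depth, as for Bmper above, this share went the other way in every library. It was then 25.8%, 28.6% and 31.6% in Lhx1-positive and 17.3%, 26.2% and 23.6% in Wnt4-positive cells, with no test. These thinned shares come from a single random draw, with 22 Lhx1-positive cells holding a Smad7 UMI. The log2 difference was negative in 15 of 16 alternatives and called in none. It reversed only with cells thinned and grouped anew (0.0104). A fall of Smad7 at this step was thus not established, and the part of depth was not tested. Smad6 (chr9:63953076-64022059), which inhibits BMP receptors more selectively than Smad7, measured 7.21, 11.9 and 10.0 in Six2-only cells. It measured 10.7, 13.9 and 15.7 in Wnt4-positive cells and 14.51, 5.35 and 12.1 in Lhx1-positive cells. The groups overlapped. Its log2 difference at the Wnt4 step was 0.50 ± 0.18 (edgeR adjusted p = 0.0887), and it was called without library 2 (0.0453) and without the 6% of cells with the most UMIs (0.0172).

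Tmem100 (chr11:90030348-90036508), a small membrane protein induced by BMP signalling in endothelium, had the largest log2 change of the 9 members at the Wnt4 step. Its level was 6.65, 6.36 and 5.92 in Six2-only cells, 21.5, 30.4 and 33.9 in Wnt4-positive cells, and 42.2, 26.7 and 72.3 in Lhx1-positive cells. Six2-only values lay below all others, and library 2 of the Lhx1-positive cells lay inside the Wnt4-positive range. The log2 change was 2.10 ± 0.18 at the Wnt4 step (edgeR adjusted p = 3.47e-08) and 2.88 ± 0.29 from Six2-only to Lhx1-positive cells (edgeR adjusted p = 3.05e-07). The Wnt4 step was called in all 16 alternatives run for it. The log2 difference of Lhx1-positive from Wnt4-positive cells, 0.78 ± 0.27, did not pass (edgeR adjusted p = 0.245). In the 47 Lhx1-positive cells with 1 Lhx1 UMI the level was 72.7 ± 28.9 (SD, n = 3). In the 32 with 2 or more it was 22.1 ± 30.5, with 44.4% of these Tmem100 UMIs in 1 cell. Endothelial markers, the textbook setting of this gene, summed to 8.85 to 10.2 CPM in Six2-only, 7.28 to 9.91 in Wnt4-positive and 7.23 to 8.02 in Lhx1-positive cells. Cdh5, Tie1 and Tek were at 0 in Wnt4-positive cells, as they were with Pecam1 and Emcn in Lhx1-positive cells. Of the 7 endothelial markers, 4 were detected in Wnt4-positive and 2 in Lhx1-positive cells. At least 1 of them was found in 60 of 413 Wnt4-positive and 8 of 79 Lhx1-positive cells.

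Within Wnt4-positive cells several members differed with the number of Wnt4 UMIs, as a description with no test. There were 281 cells with 1 Wnt4 UMI, 61 with 2 and 71 with 3 or more, at median depths of 16884, 20500 and 24028 UMIs, so depth rose along the same order. Tmem100 stood at 20.05 ± 7.83, 31.3 ± 3.76 and 63.4 ± 31.3 CPM (SD, n = 3). Bmper stood at 44.2 ± 15.5, 61.1 ± 12.4 and 73.9 ± 24.2, and Bambi at 16.1 ± 6.07, 15.0 ± 1.45 and 45.3 ± 27.1. Bmp7 stood at 126.7 ± 15.3, 88.6 ± 20.4 and 96.2 ± 24.2. Tmem100 was higher at each count in every library, while Smad7 had no common order over libraries. Library 2 had only 8 cells with 2 Wnt4 UMIs and 7 with 3 or more.

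**Figure D3:**
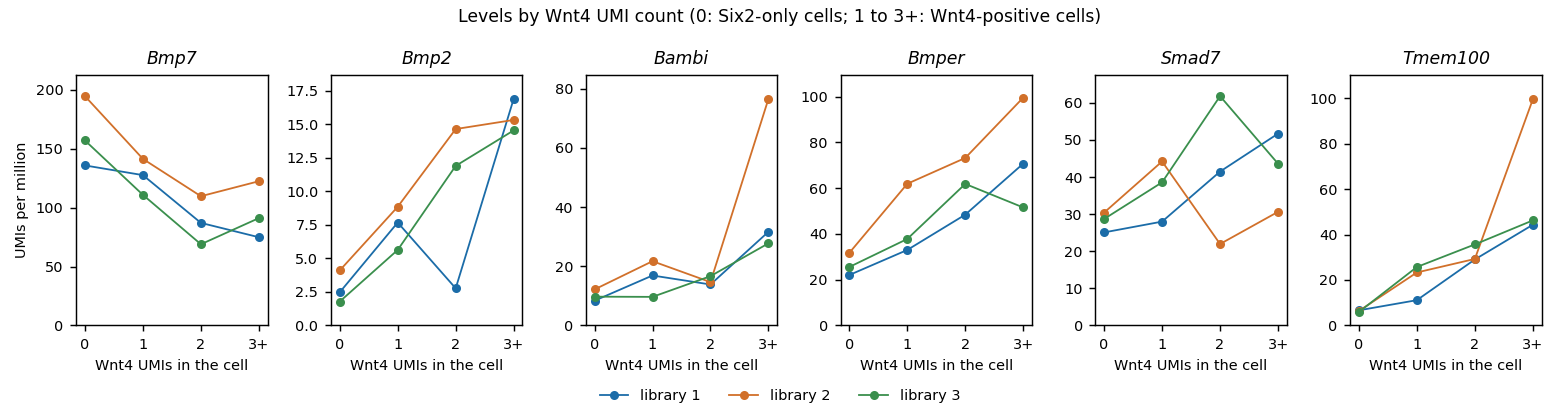
Levels of 6 members in CPM (y axis, from 0) against the number of Wnt4 UMIs per cell (x axis; 0 are the Six2-only cells), 1 line per library. Tmem100 climbs from 5.92 to 6.65 at 0 to between 44.3 and 99.5 at 3 or more, and Bmp7 is lower at 3 or more than at 0 in all 3 libraries.

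The progenitor gene Cited1, which marks the least committed progenitors, also divided the groups for some members. Among Six2-only cells, the 2103 without a Cited1 UMI had Bmp4 at 23.1, 31.0 and 26.7, and the 3908 with one had it at 15.9, 20.4 and 17.6. Bmp4 was thus higher without Cited1 in each library, while Bmp7 was alike, at 164.6 ± 25.9 and 161.7 ± 31.7 (SD, n = 3). Among Wnt4-positive cells, the 203 without Cited1 had Bmper at 66.0 ± 22.1 and Tmem100 at 36.3 ± 10.3, against 40.9 ± 6.15 and 21.9 ± 7.05 in the 210 with it. Both genes were higher without Cited1 in each of the 3 libraries, and no test was made. Cells without a Cited1 UMI were also read less deeply. Median depth was 13659 UMIs without and 15381 with Cited1 in Six2-only cells, and 17411 and 19138.5 in Wnt4-positive cells.

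Lhx1-positive cells divided by Wnt4 were unlike each other. Of the 79 cells, 24 held a Wnt4 UMI (11, 3 and 10 in libraries 1, 2 and 3) and 55 did not, with median depths of 23651 and 13521 UMIs. Tmem100 was at 93.4, 114.2 and 106.6 in the former and 4.58, 9.595 and 23.4 in the latter, with no overlap. In library 2 the former value was 7 UMIs in 1 of 3 cells. Bmp4 was at 70.1 ± 11.2 against 32.5 ± 15.2 (SD, n = 3), and Bmp7 at 93.1 ± 16.4 against 161.1 ± 40.6. Bmp2 was at 145.0 ± 99.0 against 28.9 ± 6.11, and in library 2 the former value was 15 UMIs in 1 of 3 cells. Bmper was at 22.6 ± 8.91 against 24.1 ± 7.30, so its low level held in both. With the 55 cells left out, a setting added after seeing the data, the fall of Bmper at the Lhx1 step was not called (edgeR adjusted p = 0.0646). In that setting Bmp2, Bmp4, Bambi and Tmem100 were called higher at the Lhx1 step. Bmp7 was then called lower than in Six2-only cells (edgeR adjusted p = 0.00039), which no other alternative gave. Wnt4 and Lhx1 set the cell groups, so the levels of this split are a description with no test. No doublets were called, and the part of droplets that held 2 cells was not tested.

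**Figure D4:**
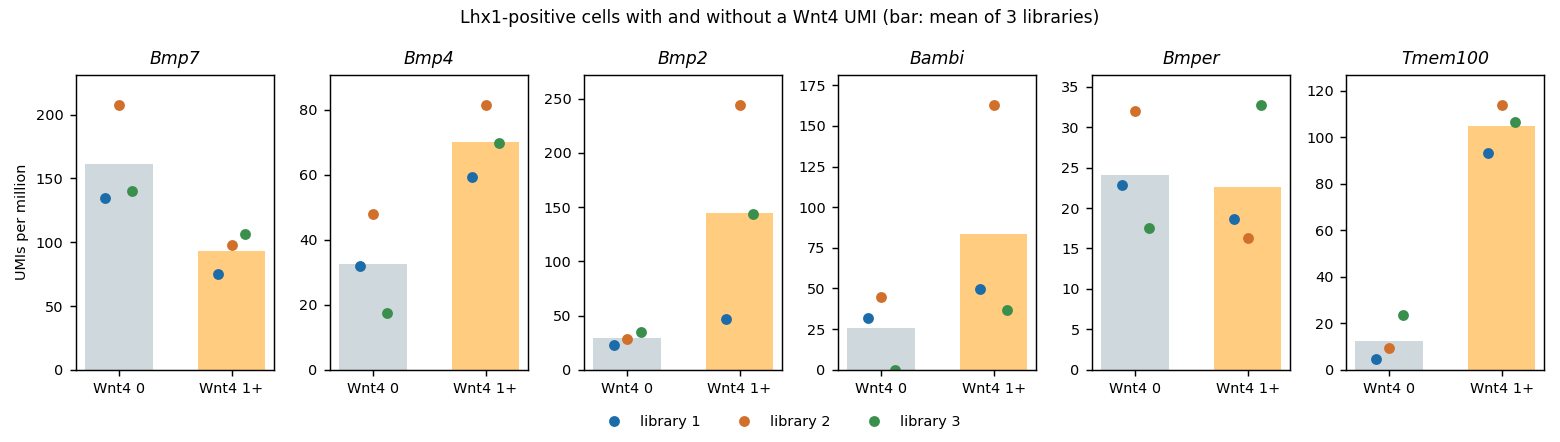
Levels of 6 members in CPM (y axis, from 0) in Lhx1-positive cells without and with a Wnt4 UMI (x axis; bars are means of 3 libraries and points are libraries). Tmem100 points lie at 93.4 to 114.2 with Wnt4 and at 4.58 to 23.4 without.

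Of 60 further genes of the pathway, 26 passed the filter on low counts. At the Wnt4 step 6 rose and 2 fell, against 10.2% of all genes called in this comparison. At the Lhx1 step 2 rose and 1 fell (1.13% of all genes), and from Six2-only to Lhx1-positive cells 7 rose and 1 fell (5.12% of all genes). The median log2 changes of the 26 were -0.04, 0.06 and 0.12. The 6 that rose at the Wnt4 step were all 6 tested genes of the target list: Id1, Id2, Id3, Id4, Hey1 and Atoh8, where 4.85% of all genes rose. The rest of the 10 genes on this list, Msx1, Msx2, Dlx5 and Gata2, were too rare to be tested. Atoh8 passed the filter only through the groups where it was higher, so this count depends in part on the filter. The lists were also chosen with earlier results of these data known, so these shares are descriptions. The Id genes encode inhibitors of basic helix-loop-helix transcription factors. Id2 stood at 542.6, 615.9 and 704.8 in Wnt4-positive against 225.9, 237.2 and 244.7 in Six2-only cells, a log2 change of 1.38 ± 0.05 (edgeR adjusted p = 2.37e-14). It was lower again in Lhx1-positive cells, at 381.2, 318.2 and 395.3 (log2 change -0.72 ± 0.08, edgeR adjusted p = 3.39e-06). Id1 went from 79.9 ± 10.1 to 164.2 ± 41.2 and 217.4 ± 33.5 (SD, n = 3), with a log2 change of 1.02 ± 0.09 at the Wnt4 step (edgeR adjusted p = 3.47e-08). Id4 went from 3.91 ± 1.41 to 16.03 ± 7.34, a log2 change of 1.99 ± 0.19 (adjusted p = 2.03e-07), and Id3 had a log2 change of 0.49 ± 0.06 (adjusted p = 4.74e-06), both by edgeR. Without the library block the adjusted p of edgeR was 0.0604 for Id1, 0.333 for Id3 and 0.0611 for Id4, and 0.144 for the fall of Id2 at the Lhx1 step.

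Hey1, a transcription factor shared with Notch signalling, rose from 30.8 ± 10.0 to 42.6 ± 12.9 (SD, n = 3), a log2 change of 0.44 ± 0.13 (edgeR adjusted p = 0.0286). This was not called without library 1 (0.167) or library 3 (0.234), and it was called in 7 of 16 alternatives. Atoh8 stood at 1.57 ± 0.35 and 4.38 ± 0.36 (SD, n = 3), a log2 change of 1.48 ± 0.35 (edgeR adjusted p = 0.00638, and 0.133 without library 3).

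The 2 genes that fell at the Wnt4 step were Rgmb, a BMP co-receptor, and Nbl1, a secreted BMP antagonist of the DAN family. Rgmb stood at 25.2, 42.2 and 30.4 in Six2-only and 16.1, 24.5 and 15.7 in Wnt4-positive cells, a log2 change of -0.78 ± 0.13 (edgeR adjusted p = 0.000337, and 0.148 without the block). Nbl1 stood at 79.1 ± 11.2 and 48.5 ± 12.7 (SD, n = 3), a log2 change of -0.72 ± 0.09 (edgeR adjusted p = 4.41e-06, and 0.0739 without the block). Nbl1 was at 35.5 ± 12.1 in Lhx1-positive cells, and its log2 change from Six2-only cells was -1.15 ± 0.19 (edgeR adjusted p = 0.000266). A further 2 genes, chosen after their values were seen, rose in Lhx1-positive cells. Fstl1, a secreted BMP antagonist, rose from Wnt4-positive cells by a log2 change of 0.75 ± 0.12 (edgeR adjusted p = 0.000921). The difference was 0.31 (0.631) with cells bearing ureteric markers left out. Without library 1 its adjusted p was 0.249 by edgeR. Crim1, a transmembrane BMP binder, rose from Six2-only cells by 1.82 ± 0.45 (edgeR adjusted p = 0.0155). Without library 1 the Crim1 difference was 0.78 (edgeR adjusted p = 0.746), and the call was also lost without the block (0.0857) and with DESeq2 (adjusted p = 0.0554).

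Among the receptors, Bmpr2, Acvr1, Acvr2a and Acvr2b did not pass the test in any comparison, and neither did the signalling Smads Smad1, Smad5 and Smad4. Of these, Smad5 came nearest, with a log2 difference of -0.59 ± 0.18 between Lhx1-positive and Six2-only cells (edgeR adjusted p = 0.053). The signalling Smad Smad9 and the type I receptor Bmpr1b were among the 34 genes too rare to be tested, and their levels are a description. Smad9 stood at 0.56 ± 0.10 CPM in Six2-only, 3.57 ± 0.48 in Wnt4-positive and 2.12 ± 1.99 in Lhx1-positive cells (SD, n = 3), from 53, 29 and 4 UMIs. The Wnt4-positive values of Smad9 lay above the Six2-only values in all 3 libraries without overlap. Bmpr1b stood at 1.64 ± 0.18, 2.396 ± 0.956 and 10.5 ± 6.46 CPM (SD, n = 3), from 154, 17 and 14 UMIs, and its Lhx1-positive values lay above all others. Nog, which encodes Noggin, stood at 0.49 ± 0.10, 1.70 ± 0.40 and 4.53 ± 4.85 CPM (SD, n = 3), from 46, 14 and 7 UMIs, with Wnt4-positive above Six2-only values in every library. Among the other genes too rare to be tested, Fst, Gata2, Chrdl2 and Hfe2 were also higher in Wnt4-positive than in Six2-only cells without overlap. These rest on 24, 16, 6 and 5 UMIs in Wnt4-positive cells against 129, 25, 7 and 21 in Six2-only cells. Bmp3, Bmp5, Gdf5 and Kcp were lower without overlap, from 3, 0, 0 and 7 UMIs against 92, 8, 15 and 134. Wnt4-positive cells held 8212716 UMIs in all and Six2-only cells 94317846. A gene this rare can thus be at 0 in Wnt4-positive cells with no change in level. The share of all genes without overlap is not given here, so none of these rare genes is read as changed. The ligands Bmp5 and Bmp6 had 8 and 2 UMIs in Six2-only cells and none in the other groups.

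**Figure D5:**
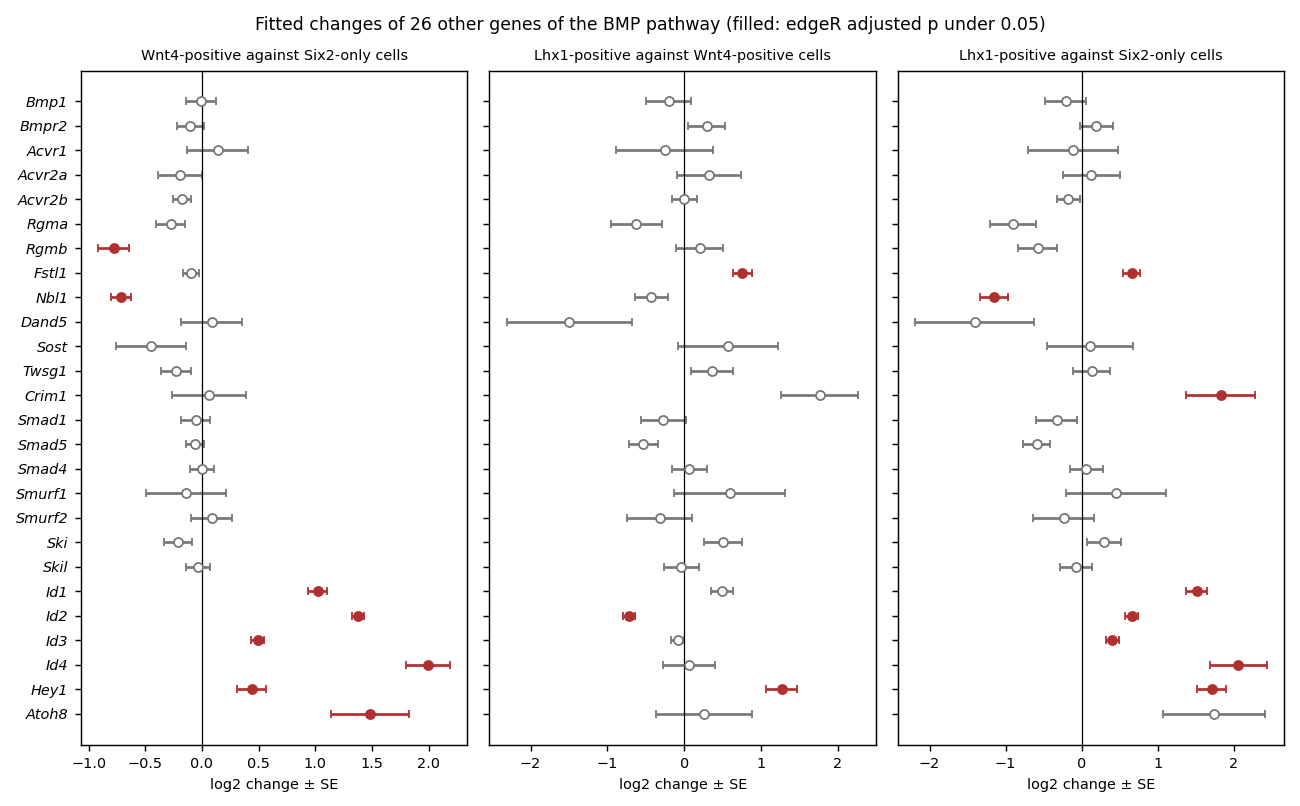
Fitted log2 change ± SE (x axis) of 26 further genes of the BMP pathway (y axis) in the 3 comparisons. The 6 target genes at the foot of the first panel all lie right of 0 with filled points (edgeR adjusted p under 0.05), while the receptors and signalling Smads above them, other than Rgmb, are open.

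The genes whose pattern was most like each member were sought among 7969 genes, by Pearson's r of log2 levels over the 9 sums of library and group after each library's mean was taken out. The sums share libraries and differ in depth, so r is a description with no test. Each r given is the highest of 7969 genes over only 9 sums, so high values can come from the search itself. Even Bmpr1a, called in no comparison, reached 0.97. Bmp7 was nearest to Dusp3 (r = 0.98), Bmp4 to Impdh1 (0.98), Bmp2 to Orai1 (0.99) and Tmem100 to Tubb4b (0.99). Bambi was nearest to Car14 (0.99), Smad6 to Ndufb7 (0.98) and Bmpr1a to Ube2v1 (0.97). Smad7 was nearest to another member, Bmper (0.96), and Bmper to Naaa (0.98).

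Members found together in single Six2-only cells were counted after each of 5917 cells was thinned to 6000 UMIs. Of the 823 cells with a Bmper UMI, 18.8% also held Smad7, against 14.2% of the others, and 8.02% held Bambi, against 4.77%. Of the 3634 cells with a Bmp7 UMI, 2.39% held Tmem100, against 4.25% of the others. These shares pool 3 libraries and carry no test.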

How the data were processed

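Single-cell RNA was counted in 3 libraries of sorted cells. Per the submitters' processing notes, the authors used Cell Ranger 1.3.1 and mm10, and the values deposited by the authors are raw counts of UMIs in each gene and cell, with no normalization. Any other filter on cells was not stated in the sources used here. Of 7924 barcodes, 7896 were kept: 26 had under 1000 genes or over 10% mitochondrial UMIs, and 2 had over 1% haemoglobin UMIs. No doublet caller was run. The authors' sort had a gate against doublets, per the labels' protocols, which cannot remove droplets that caught 2 cells. An alternative left out the 6% of cells with the most UMIs. UMIs were summed per library and cell group (9 sums) and tested with edgeR 4.0.16 (R 4.3.3; TMM, filterByExpr, quasi-likelihood, two-sided, Benjamini-Hochberg over all 10237 genes, threshold 0.05), with the library as a block. All groups shared 1 estimate of spread. The groups of a library come from 1 tube, and sums of the same library deviated together (r of 0.29 to 0.90 over genes in 9 pairs). The 36 cells with Six2 and Lhx1 but no Wnt4 counted as Lhx1-positive. No libraries were copies: the chi-square per degree of freedom between them was 60.3 to 342.2. The fit was tested on simulated sums with a set spread. Only genes above a set CPM level were changed there, so the rarer members were not covered and no call here rests on it. The named genes were all 10 members, the other pathway genes past the threshold at the Wnt4 step, and the genes most like each member over the 9 sums (the first of 3 is given). Further pathway genes named in the text, among them Smad9, Bmpr1b and Nog, fell outside this rule. Members and lists were chosen with earlier results of these data known. Alternatives included DESeq2 1.42.0, no block, each library left out, other filters, thinning and cells left out by markers. Coordinates are from GRCm38 (GENCODE) and promoters from RefSeq.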

Additional observations from a re-analysis of the deposited data

How the results depend on the processing

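Main counts of called genes were 1043 at the Wnt4 step, 116 at the Lhx1 step and 524 from Six2-only to Lhx1-positive cells. In that order, no replicate block gave 85, 68 and 185, cells thinned to 6000 UMIs 173, 9 and 38, and sums thinned to the smallest of the library 97, 61 and 247. No filter on low counts gave 256 and 819 in the latter pair, leaving out the 6% of cells with the most UMIs 49 and 195, and leaving out Lhx1-positive cells without Wnt4 414 and 981. DESeq2 gave 323 in the first. Leaving out 1 library gave 267 to 1207, 33 to 159 and 111 to 756, lowest without library 1. Thinning the Six2-only sums to the Wnt4-positive totals, added after seeing the data, gave 591 and kept the 6 member calls, while sums thinned to the smallest of the library kept Tmem100 alone at the Wnt4 step. Cells thinned to 6000 UMIs, where 6 members were tested, left 3 member calls there (Bmp7, Bmper, Tmem100) and none in the other comparisons. Cells were grouped anew by thinned UMIs, so fewer counts and other cells (39 Lhx1-positive) entered each fit, and the cause was not tested. Depth limits the Lhx1-positive group most (1547000 UMIs in all).

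The following log2 changes reversed, none of them called in the main setting. At the Wnt4 step Bmpr1a (-0.0423) ranged from -0.113 to 0.073 with 1 library left out and was 0.0178 with Six2-only sums thinned, and Crim1 (0.0622) ranged from -0.405 to 0.254 and was -0.0844 with DESeq2. At the Lhx1 step, leaving out 1 library gave Bmpr1a -0.0976 to 0.214, Id4 -0.0695 to 0.107 and Smad6 -0.761 to 0.111. There, Bmpr1a was -0.0348 with sums thinned, -0.033 without the 6% deepest cells and -0.0491 without barcodes rich in A and T, and Id4 was -0.033 without the 6% deepest cells. At least 2 UMIs of Wnt4 or Lhx1 gave Id1 -0.107, Rgmb -0.357 and Tmem100 -0.902, and thinned cells gave Smad7 0.0104 and Tmem100 -0.345. Leaving out Lhx1-positive cells without Wnt4 gave Bmp7 -0.345, Id3 0.0873, Rgmb -0.159 and Smad6 0.114, and leaving out cells with ureteric markers gave Id3 0.0152. From Six2-only to Lhx1-positive cells, leaving out 1 library gave Bmpr1a -0.0246 to 0.101 and Smad6 -0.302 to 0.716. Bmpr1a was -0.0294 with no filter, -0.0566 with sums thinned, -0.123 without the 6% deepest cells and -0.0605 without barcodes rich in A and T. Smad6 was -0.15 without the 6% deepest cells, Smad7 0.745 with thinned cells and 0.0867 without Lhx1-positive cells lacking Wnt4, and Bmper 0.0341 without cells with ureteric markers.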
